A study of Mus musculus with 2 samples.

Results

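The genes described here decide the fate of pyruvate in mouse gastrocnemius: the lactate dehydrogenases Ldha, Ldhb and Ldhd, the mitochondrial pyruvate carrier subunits Mpc1 and Mpc2, the pyruvate dehydrogenase subunits Pdha1 and Pdhb, the pyruvate dehydrogenase kinases Pdk2 and Pdk4, and the pyruvate dehydrogenase phosphatase Pdp1. Members were found by gene name among the transcript models of both libraries, and all 10 of 10 had reads, out of 15324 annotated genes with at least 1 read. They held 8095 reads in 103 models in replicate 1 and 17320 reads in 169 models in replicate 2, which is 1.02% and 1.08% of the reads in annotated genes. The study read RNA molecules of the gastrocnemius, a calf muscle, by long-read sequencing in 2 libraries that form 1 group. Both came from female B6CASTF1/J mice, first-generation hybrids of C57BL/6J and CAST/EiJ, aged 36 days, with no treatment named, and each library started from 2 µg of total RNA with Lexogen and Ambion spike-ins added. The labels call the libraries biological replicates 1 and 2 and number the tissues as female 03 and female 04, but under a shared donor entry. Differences between the libraries may therefore be biological or technical, and which of these applies was not tested. The p-values below, from read counts, carry counting error and no spread between animals.

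Pyruvate is the end product of glycolysis. In the cytosol, lactate dehydrogenase converts it to lactate and back: the enzyme is a tetramer of A and B chains, of which the A chain dominates in fast glycolytic muscle and the B chain in heart and slow oxidative muscle. In the mitochondrion, the carrier formed by Mpc1 and Mpc2 brings pyruvate across the inner membrane, and the pyruvate dehydrogenase complex turns it into acetyl-CoA. Kinases switch the complex off by phosphorylating its alpha subunit, and phosphatases switch it on again.

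The tables held 853589 reads in replicate 1 and 1748822 in replicate 2, of which 797105 and 1602272 fell in annotated mouse genes. Levels are given in CPM, the count divided by the latter total and multiplied by 1000000, so that 1 read equals 1.25 CPM and 0.624 CPM. A long read is counted once whatever its length, so counts were not divided by length. CPM can be compared between genes apart from PCR copies, losses of long molecules in library making, and reads that hold only part of a transcript. The tissue label was checked against muscle markers. The fast glycolytic genes, with Myh4, Actn3 and Atp2a1 among them, were present in both libraries (8 of 8 with reads, summed level 188825 and 86775 CPM), while the heart markers Nppa and Myh6 had 0 and at most 1 read. Of these 8, Actn3, Mybpc2 and Atp2a1 were lower in replicate 2 by at least 2-fold, and 0 were higher by as much. Much of the summed level was Atp2a1, with 110003 and 30171 CPM. The libraries did not match in slow fibre markers: all 10 of 10 were higher in replicate 2, with summed levels of 47.7 and 9582 CPM, and Myh7, Myl2, Myl3 and Myoz2 had 0 reads in replicate 1. Myh2, of fast oxidative fibres, had 0 and 554 reads. Red blood cell markers were lower in replicate 2 for 4 of 5 genes (2556 and 554 CPM summed), as were 3 of 5 tested adipocyte markers (664 and 320 CPM summed over 7).

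Of these genes, 3 differed by at least 2-fold between the libraries, and all 3 were higher in replicate 2: Ldhb by 108-fold, Mpc1 by 2.38-fold and Mpc2 by 2.09-fold. The other 7 genes were not called, and 0 of the 10 were lower. Pdhb came closest to the threshold, at 1.80-fold. Counts were compared by Fisher's exact test, two-sided, with Benjamini-Hochberg adjustment over 8096 genes, those that held 10 reads or more when both libraries were summed, and genes were called where the adjusted p lay under 0.05 and the CPM differed 2-fold or more. Among all genes tested, 5.78% were called higher in replicate 2 and 5.47% lower. Of the members not called, Pdhb and Pdk4 were higher and Ldha was lower in replicate 2 with an adjusted p under 0.05. Pdk2 was lower with an unadjusted p under 0.05 only (adjusted p = 0.101, Fisher's exact test). For the kinases this sorting depends on the totals used. With Atp2a1 left out of them, the adjusted p was 0.00322 for Pdk2 and 0.296 for Pdk4 (Fisher's exact test). The median log2 ratio, replicate 2 over replicate 1 with 1 CPM added, was 0.14 over the members and 0.05 over all genes tested. With 1 library on each side, a call describes this pair of libraries and no condition.

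**Figure D1:**
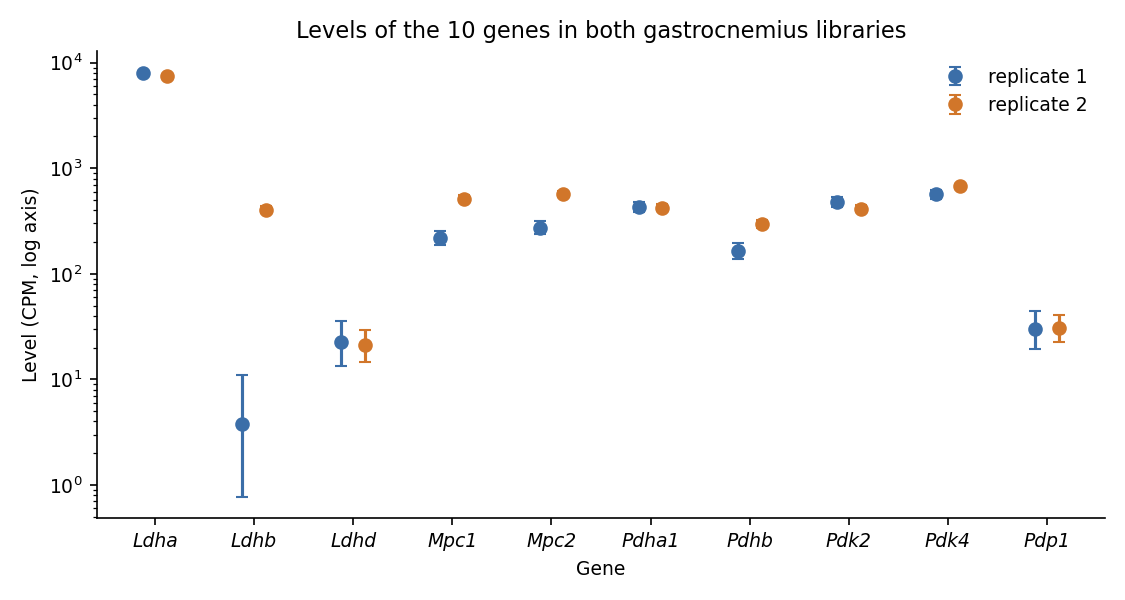
Level of each of the 10 genes in CPM (log axis) in replicate 1 (blue) and replicate 2 (orange), with exact 95% counting intervals as bars. Ldha stood at 7970 and 7450 CPM, above all other members in both libraries, and Ldhb went from 3.76 to 406 CPM.

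By the mean over both libraries, Ldha came first with 7710 ± 368 CPM (SD, n = 2), followed by Pdk4 with 620 ± 76.5 CPM. Next came Pdk2 (447 ± 45.8 CPM), Pdha1 (426 ± 1.08 CPM), Mpc2 (424 ± 211 CPM) and Mpc1 (367 ± 212 CPM). Pdhb (232 ± 93.4 CPM) and Ldhb (205 ± 285 CPM) followed, and Pdp1 (30.3 ± 0.334 CPM) and Ldhd (21.9 ± 0.963 CPM) closed the order. Neighbours in this order from Pdk2 to Pdp1 overlapped in their values over the libraries and cannot be ranked against each other. The values of the libraries did not overlap between Ldha and Pdk4, between Pdk4 and Pdk2, or between Pdp1 and Ldhd. Of these, Pdp1 and Ldhd had counting intervals that overlapped in both libraries (19.3 to 44.8 against 13.4 to 35.7 CPM in replicate 1, 22.6 to 40.4 against 14.7 to 29.7 CPM in replicate 2). With known models only, Pdk4 lay below Pdk2 in replicate 2 (453 and 477 CPM). With the reads of a near-identical pseudogene copy added, Mpc1 would stand at 385 and 932 CPM, the latter above Pdk4. Ldha alone accounted for 78.5% and 68.9% of the reads of all 10 genes. Without it, the members' summed level was 2185 CPM in replicate 1 and 3360 CPM in replicate 2.

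Ldha (ENSMUSG00000063229.15) encodes the A chain of lactate dehydrogenase, and lies on the plus strand of chromosome 7 at 46841475 to 46855627 (mm10). It had 6353 reads in replicate 1 and 11937 in replicate 2, or 7970 and 7450 CPM. The level was 1.07-fold lower in replicate 2 (95% CI 1.04 to 1.10, adjusted p = 0.000178, Fisher's exact test), a small difference well under the 2-fold threshold. Its size and direction depend on the processing. With Atp2a1 left out of the totals, Ldha was 1.17-fold lower. Without incomplete splice match and Genomic models, classes described below, Ldha was 1.03-fold higher (adjusted p = 0.102, Fisher's exact test). Nearly all molecules followed a single annotated splicing pattern: the 8-exon Ldha-202 held 95.3% (95% CI 94.7 to 95.8) and 95.0% (94.6 to 95.4) of the reads, and only 2 of 15 annotated transcripts had any. A minor form ended exon 5 at a donor site 3 bases further upstream. It was picked after its values were seen, and is shown because it removes 3 bases from the spliced message. The short donor, joined to the annotated start of exon 6, was used by 28 reads in replicate 1, 0.441% of the gene (0.293 to 0.636). In replicate 2 this junction was used by 43 reads, 0.3602% (0.261 to 0.485), so its share did not differ beyond the counting intervals. Most of these reads, 26 and 38, were in a model of the NNC class, which holds at least 1 splice site outside the annotation. The junction of exons 5 and 6 is written below with the 3 bases in capitals, over chr7:46851029-46851906, plus strand, with the intron removed.
Ldha-202: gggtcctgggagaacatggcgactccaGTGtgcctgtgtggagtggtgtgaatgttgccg
Ldha NNC model: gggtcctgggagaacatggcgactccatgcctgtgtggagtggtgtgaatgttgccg

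Ldhb (ENSMUSG00000030246.11), the gene of the B chain, lies on the minus strand of chromosome 6 at 142490249 to 142507957. It had 3 reads in replicate 1 and 651 in replicate 2, or 3.76 and 406 CPM. Replicate 1 was close to the limit of detection, while replicate 2 placed the gene beside Pdk2 and Pdha1. The ratio was 108-fold (95% CI 36.8 to 525, adjusted p = 2.46e-106, Fisher's exact test), and its width comes from the 3 reads of replicate 1. It moved together with the slow fibre markers, all 10 of which were higher in replicate 2 (47.7 and 9582 CPM summed), and with Myh2. Their part in the result was not tested. In a bulk sample, fewer cells of a type and less RNA per cell cannot be told apart.

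As a share of all lactate dehydrogenase A and B reads, Ldhb made up 0.0472% in replicate 1 (95% exact Clopper-Pearson interval 0.00973 to 0.138) and 5.17% in replicate 2 (4.79 to 5.57). Ldha reads thus outnumbered Ldhb reads 2118 to 1 in the first library and 18.3 to 1 in the second. Both genes are related, with 71.1% identical bases over the aligned coding sequences of Ldha-202 and Ldhb-201, but shared no stretch of 25 bases. Of their pseudogene copies, Gm5514 shared 61.8% of its 25-base words with Ldhb and had 0 reads in both libraries, and 6 further copies that shared 20% or more with Ldha also had 0 reads.

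Among 2184 other genes with at least 100 reads summed and a read in each library, the 5 whose log2 CPM ratio lay closest to that of Ldhb (6.75, without added CPM) were Ankrd2, Tpm3, Tnni1, Mb and Fhl1. Ankrd2, a stretch-responsive muscle protein, had 2 and 430 reads and a log2 ratio of 6.74. Tpm3, slow tropomyosin, had 9 and 2096 reads and a ratio of 6.86. The slow troponin Tnni1 (6 and 579 reads, 5.59), the oxygen store myoglobin Mb (24 and 2089 reads, 5.44) and Fhl1, a LIM domain protein of muscle (10 and 635 reads, 4.98), lay further off. Likeness here rests on 2 libraries only and on few reads in replicate 1. The counting interval of Ldhb, 36.8 to 525-fold, covers Ankrd2, Tpm3, Tnni1 and Mb, so their order of closeness is not resolved. In ratio, 3 of the 2184 genes were at least as high as Ldhb. Genes with 0 reads in replicate 1 were left out of the 2184. Among such markers, set at 3 reads there, Myl3 (1503 reads in replicate 2) would reach 249-fold and Myl2 (663 reads) 110-fold. Myh7, Myoz2 and Myh2 would lie below Ldhb.

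Ldhb-201 was the leading model in both libraries, with 2 of 3 and 585 of 651 reads, the latter 89.9% (95% CI 87.3 to 92.1). The second form that met the limit for naming (5% of the gene's reads in a library and 10 reads summed) skipped exon 7 of 8, with 1 and 10 reads, or 1.54% in replicate 2 (0.739 to 2.81). It reached 5% only through its 1 read among the 3 of replicate 1. It was of the NIC class, which joins annotated splice sites in a combination the annotation does not list. Exon 7 is wholly coding, 124 bases long and not a multiple of 3, so the form without it shifts the reading frame. Its sequence is shown in capitals, at chr6:142492493-142492616, minus strand, with 20 bases of exons 6 and 8 in lower case on either side.
Ldhb-201 exon 7: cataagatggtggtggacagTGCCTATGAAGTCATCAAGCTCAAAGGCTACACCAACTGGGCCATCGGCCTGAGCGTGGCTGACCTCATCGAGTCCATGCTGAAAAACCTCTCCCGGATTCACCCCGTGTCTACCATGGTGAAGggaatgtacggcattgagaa

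Ldhd (ENSMUSG00000031958.16), a mitochondrial dehydrogenase that uses the D form of lactate, lies on the minus strand of chromosome 8 at 111623785 to 111630374. It had 18 and 34 reads, or 22.6 and 21.2 CPM, the lowest member level in replicate 2, while in replicate 1 Ldhb was lower. The libraries were 1.06-fold apart (95% CI 0.566 to 1.94 for replicate 1 over 2, adjusted p = 0.979, Fisher's exact test), and the interval spans a difference of nearly 2-fold either way. Ldhd-201 held 12 and 20 of these reads, and 3 and 12 were in single-exon models of the Genomic class, which overlap a gene without following its splicing.

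Mpc1 and Mpc2, which form the carrier together, were both higher in replicate 2. Mpc2 (ENSMUSG00000026568.6; chromosome 1, plus strand, 165460637 to 165481214) had 219 and 919 reads, or 275 and 574 CPM. That was 2.09-fold (95% CI 1.80 to 2.43, adjusted p = 5.03e-24, Fisher's exact test). Mpc1 (ENSMUSG00000023861.17; chromosome 17, plus strand, 8282904 to 8297661) had 173 and 828 reads, or 217 and 517 CPM, and was 2.38-fold higher (2.02 to 2.82, adjusted p = 6.71e-28). Mpc2 lost its call when Atp2a1, which held 110003 and 30171 CPM, was left out of the totals (1.92-fold). Mpc1 lost its call when only known models were counted (7 and 20 reads, 1.40-fold). The pair kept nearly the same proportion, Mpc2 making up 55.9% of their summed reads in replicate 1 (50.8 to 60.8) and 52.6% in replicate 2 (50.2 to 55.0). Which of them is higher depends on the reads counted. With the reads of the copy Mpc1-ps added, Mpc1 was 1.40 and 1.63 times Mpc2, and with known models only Mpc2 was 96.8% and 97.8% of the pair. Mpc2 was spliced as annotated, with 95.9% and 96.7% of its reads in the 5-exon Mpc2-201.

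Mpc1 departed from its annotation in nearly every read. Its annotated transcript Mpc1-208 holds, as the second of 5 exons, an exon of 4 bases (chromosome 17, 8293415 to 8293418), and had 0 reads in both libraries. A NIC model that joined exon 1 directly to exon 3 took 156 of the 173 Mpc1 reads of replicate 1 and 772 of the 828 of replicate 2. Its share was therefore 90.2% (95% CI 84.7 to 94.2) in the first and 93.2% (91.3 to 94.9) in the other. The share did not differ between the libraries (adjusted p = 0.416, Fisher's exact test). Mpc1-202, with an exon of 81 bases at the same place, had 6 and 19 reads. The 4 bases are positions 72 to 75 of a coding sequence of 327 bases, counted from the first base of the start codon. Without them 323 bases remain, which is not a multiple of 3. The tables list exon ends and no read bases, so whether the molecules themselves held the 4 bases was not tested.

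**Figure D2:**
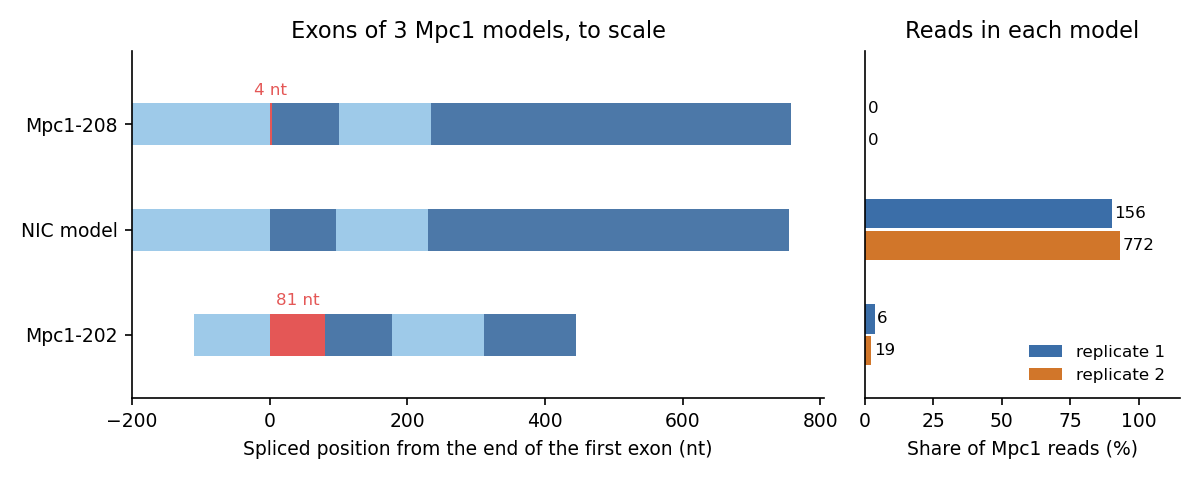
Left, exons of 3 Mpc1 models drawn to scale on the spliced message in nt from the end of the first exon, alternating in blue, with the exon after the first one in red where Mpc1-208 (4 nt) and Mpc1-202 (81 nt) hold it. Right, share of Mpc1 reads in each model in replicate 1 (blue) and replicate 2 (orange), with read counts at the bars: the NIC model without the 4-nt exon held 156 and 772 reads and Mpc1-208 held 0.

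The same holds for the shortest exons of other genes. Of the 10 annotated exons of at most 10 bases with at least 20 informative reads in each library, in 7 genes, all 10 had 0 including reads. Both 4-base exons of Mpc1 belong to this set, the second being an alternative at 8296527 to 8296530 used by other annotated transcripts. Between 11 and 15 bases, 6 of 7 exons had 0 including reads. Between 16 and 20 bases the count was 7 of 20, and between 21 and 30 bases it was 9 of 164, with a median inclusion of 100% in both libraries. The median for 16 to 20 bases was 0.750% and 0.569%.

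**Figure D3:**
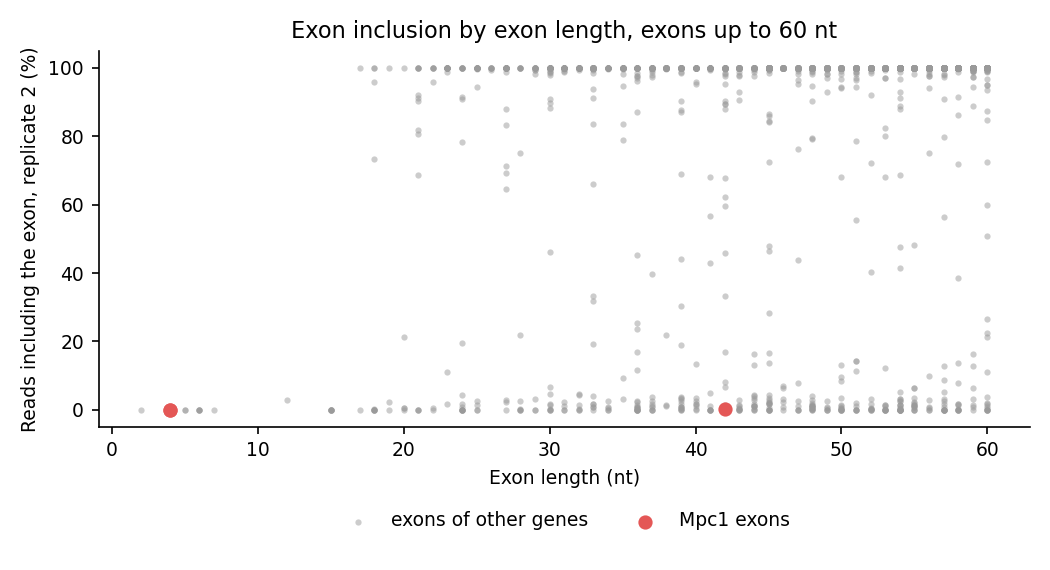
Reads that include an exon as a percentage of reads informative for it in replicate 2, against exon length in nt, for internal exons of at most 60 nt in all genes (grey) and in Mpc1 (red). All exons up to 10 nt lie at 0, and the 2 Mpc1 exons of 4 nt share 1 point.

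Mpc1 also has a processed pseudogene, Mpc1-ps (chromosome 12, minus strand, 110858565 to 110858894), an intronless copy of 330 bases. It shares 91.8% of its 25-base words with Mpc1 and differs from the coding sequence of Mpc1-208, stop codon included, by 1 base, G41A, counted from the first base of the start codon. Mpc1-ps had 134 and 666 reads, or 168 and 416 CPM, and was 2.47-fold higher in replicate 2 (95% CI 2.05 to 3.00, adjusted p = 6.35e-24, Fisher's exact test). It thus took 43.6% (38.0 to 49.4) and 44.6% (42.0 to 47.1) of the reads of gene and copy together. With copies this alike, which locus a read came from is uncertain. Adding the reads of Mpc1-ps to Mpc1 gave 385 and 932 CPM, a 2.42-fold difference. The stretch around the 4-base exon is printed below to show how gene, NIC model and copy differ, with the 4 bases and the base at position 41 in capitals. Mpc1-208 and the NIC model run over chr17:8283922-8296574, plus strand with introns removed, and Mpc1-ps over chr12:110858780-110858863, minus strand.
Mpc1-208: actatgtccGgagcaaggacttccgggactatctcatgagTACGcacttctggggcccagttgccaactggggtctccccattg
Mpc1 NIC model: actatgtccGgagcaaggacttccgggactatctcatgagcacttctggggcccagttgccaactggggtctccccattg
Mpc1-ps: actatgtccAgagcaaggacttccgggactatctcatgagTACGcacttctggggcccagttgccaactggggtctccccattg

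Mpc1-ps holds the 4 bases in 1 unbroken run, whereas in the gene introns lie on both sides of them.

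The subunits of pyruvate dehydrogenase did not move alike. Pdha1 (ENSMUSG00000031299.10; chromosome X, minus strand, 160122209 to 160138413), the alpha subunit that the kinases phosphorylate, had 340 and 681 reads, or 427 and 425 CPM. The ratio of replicate 1 over 2 was 1.00 (95% CI 0.879 to 1.14). Pdhb (ENSMUSG00000021748.9; chromosome 14, minus strand, 8165996 to 8173025), the beta subunit, had 132 and 477 reads, or 166 and 298 CPM. It was 1.80-fold higher in replicate 2 (1.48 to 2.197, adjusted p = 1.02e-08, Fisher's exact test), which passed the p threshold and not the 2-fold threshold, and its interval does not reach 1. Pdhb made up 28.0% of the reads of both subunits in replicate 1 (23.96 to 32.3) and 41.2% in replicate 2 (38.3 to 44.1), and these intervals do not overlap. Pdhb-201 held 96.2% and 92.0% of Pdhb reads. Pdha1-201 held 89.1% and 81.2% of Pdha1 reads, and single-exon Genomic models 7.06% and 12.3%. These shifts of Pdha1 had adjusted p-values of 0.00684 and 0.0409 by Fisher's exact test and stayed under the 10 percentage points needed for a call. A processed pseudogene of Pdhb, Gm6123, shared 66.4% of its 25-base words with Pdhb and had 0 reads.

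The kinases were the most abundant regulators of the complex. Pdk4 (ENSMUSG00000019577.6; chromosome 6, minus strand, 5483351 to 5496309), a kinase isoform induced by fasting in muscle, had 451 and 1080 reads, or 566 and 674 CPM. Pdk2 (ENSMUSG00000038967.13; chromosome 11, minus strand, 95026258 to 95041354), a kinase isoform found in most tissues, had 382 and 664 reads, or 479 and 414 CPM. Pdk4 was 1.19-fold higher in replicate 2 (95% CI 1.07 to 1.33, adjusted p = 0.0114) and Pdk2 was 1.16-fold lower (1.02 to 1.31, adjusted p = 0.101, both by Fisher's exact test), so neither was called. Pdk4 was 54.1% of their summed reads in replicate 1 (50.7 to 57.6) and 61.9% in replicate 2 (59.6 to 64.2). The direction for Pdk4 depends on which reads are counted. Without incomplete splice match models, which hold only part of an annotated intron chain, and without Genomic models, it was 1.22-fold lower in replicate 2 (adjusted p = 0.0276). With known models only it was 1.39-fold lower (334 and 490 reads, adjusted p = 6.05e-05, Fisher's exact test), and Pdk4 then made up 50.2% and 48.7% of the reads of both kinases. The 2 kinases share 66.1% of their coding bases and no stretch of 25 bases.

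**Figure D4:**
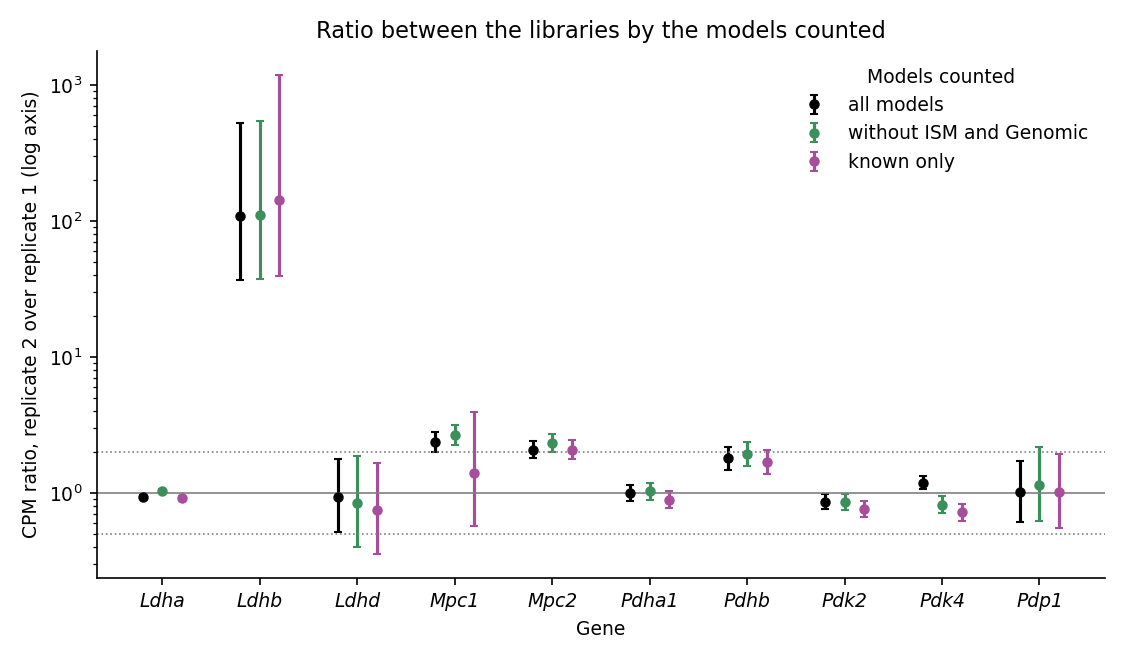
Ratio of CPM in replicate 2 over replicate 1 (log axis) for each gene with exact 95% counting intervals, from all models (black), without ISM (incomplete splice match) and Genomic models (green), and from known models only (purple), with the solid line at 1 and dotted lines at 2-fold. Pdk4 passes from above to below 1, Mpc1 has few reads in known models, and Ldhb lies above 30-fold in each set.

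The models that held the reads of Pdk4 also differed between the libraries. Of 23 member models tested, 2 were called, both of Pdk4, while those of Ldhb and Ldhd had too few reads to test. Among all 5851 models tested, 17.3% were called. Without ISM and Genomic models 0 member models were called, and the difference of Pdk4-201 went from -29.2 to -2.51 percentage points (adjusted p = 0.147, Fisher's exact test). Pdk4-201, the full 11-exon transcript, held 334 reads in replicate 1, 74.1% (95% CI 69.8 to 78.04), and 484 in replicate 2, 44.8% (41.8 to 47.8), with an adjusted p of 1.04e-24 by Fisher's exact test. Single-exon Genomic models held 102 reads, 22.6% (18.8 to 26.8), and 556 reads, 51.5% (48.5 to 54.5), with an adjusted p of 1.24e-24. Nearly all of the latter were in a single model at the 3′ end of the gene. In replicate 1 the table lists 101 reads in a model 1 base long at the last annotated base, 5483351. In replicate 2 it lists 555 reads in a model from 5483005 to 5483351, of which 346 bases lie past the annotated end. The listed ends of such models are therefore no guide to the length of the reads in them.

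A rise in single-exon Genomic reads was common in replicate 2. Of 797 genes whose single-exon Genomic models could be tested, 38.4% were called higher in replicate 2 and 30 genes were called lower, with a median difference of 12.2 percentage points, and 293 genes had a larger share in replicate 2 than Pdk4. Over all annotated genes, Genomic models held 4.63% and 8.001% of the reads. Pdk2 and Pdha1 moved the same way by less: single-exon Genomic models held 6.54% and 13.3% of Pdk2 reads (adjusted p = 0.00400, Fisher's exact test), while Pdk2-201 held 86.6% and 77.7% (adjusted p = 0.00287). Neither reached 10 percentage points.

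**Figure D5:**
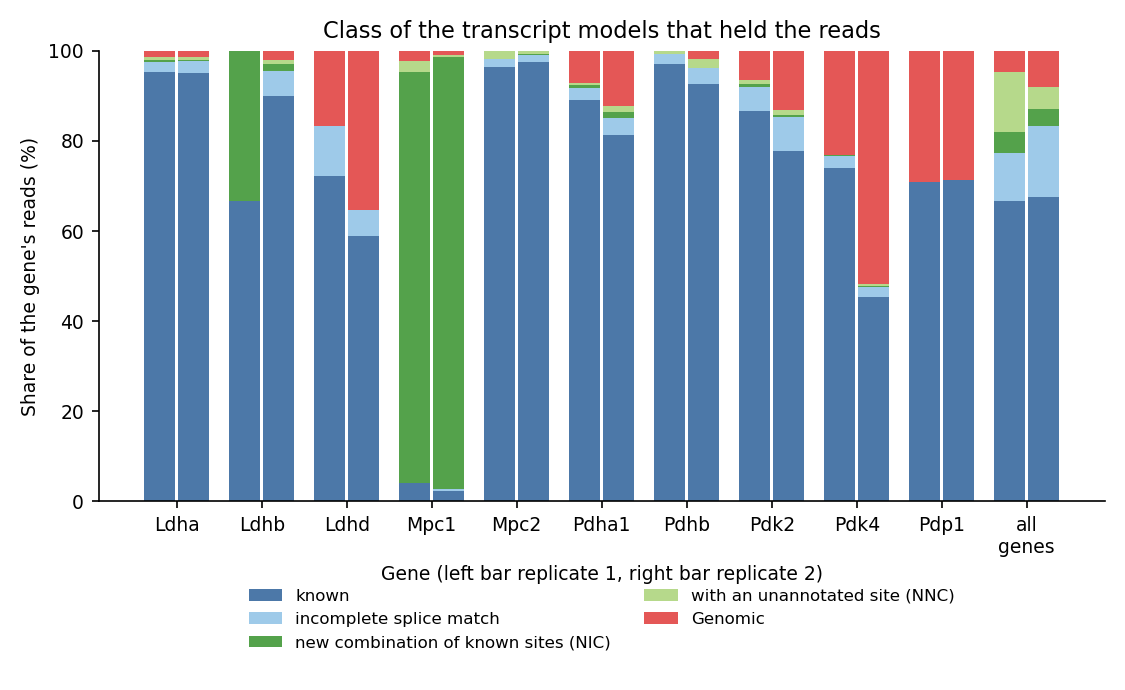
Share of each gene's reads (%) by class of transcript model, in replicate 1 (left bar) and replicate 2 (right bar), with all annotated genes at the right end. Known models hold over 77% of the reads of Ldha, Mpc2, Pdha1, Pdhb and Pdk2, NIC models over 91% of Mpc1, and Genomic models 23.1% and 51.8% of Pdk4. The left bar of Ldhb rests on 3 reads. Over all annotated genes, ISM models held 10.7% and 15.8% of the reads, NNC models 13.3% and 4.89%, and known models 66.6% and 67.6%.

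Pdp1 (ENSMUSG00000049225.14; chromosome 4, minus strand, 11958184 to 11966452), a phosphatase that reactivates the complex, was scarce next to the kinases. It had 24 and 49 reads, or 30.1 and 30.6 CPM, and a ratio of 1.02 (95% CI 0.611 to 1.73). The 2-exon Pdp1-203 held 16 and 33 of these reads, and single-exon Genomic models 7 and 14. In replicate 2, kinase reads (Pdk2 and Pdk4) numbered 1744 against 49 of Pdp1, and in replicate 1 they numbered 833 against 24.

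In 9 of the 10 genes the leading model was the same in both libraries, Pdk4 being the exception. Inclusion of internal exons could be tested in 7 of the genes, without Ldhb, Ldhd and Pdp1. Of 56 member exons tested, 0 were called and 0 had an unadjusted p under 0.05 by Fisher's exact test, where 0.0474% of 18986 exons in all genes were called. However, 47 of the 56 had over 99% inclusion in both libraries, and the other 9 had at most 3.70% in either. The test therefore had little room to find a difference, and its 0 calls say little about splicing. Both donor forms of the Ldha exon described above had 0 skipping reads, so this test did not measure a shift between donors.

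Other genes of pyruvate and lactate handling were taken from a list of 35, of which 25 had enough reads to test. Among these 25, 2 were higher in replicate 2, 2 were lower and 21 were not called. Over all 8096 genes tested, 5.78% were called higher and 5.47% lower. The median log2 ratio was 0.17, against 0.05 over all genes. Mdh1, cytosolic malate dehydrogenase, had 191 and 974 reads, or 240 and 608 CPM, and was 2.54-fold higher (adjusted p = 2.18e-36, Fisher's exact test). Esrra, a nuclear receptor that drives genes of oxidative metabolism, had 251 and 2879 reads and was 5.71-fold higher. Of these reads, however, 96.0% and 99.1% were in a single-exon Genomic model of 73 listed bases, known models held 9 and 22 reads, and the call was lost with known models only (1.20-fold, adjusted p = 0.876, Fisher's exact test). Slc16a3, a lactate exporter of glycolytic fibres, had 823 and 731 reads, or 1032 and 456 CPM, and was 2.26-fold lower (adjusted p = 1.97e-55, Fisher's exact test). Pdpr, the regulatory subunit of the phosphatase, had 32 and 10 reads and was 6.43-fold lower, with 29 and 6 of the reads in single-exon Genomic models. Its known models held 2 and 3 reads, too few to test alone.

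By the mean over both libraries, the most abundant genes of the list were Pkm, Bsg and Esrra. Esrra stood there through replicate 2 (1797 CPM), since its 315 CPM in replicate 1 lay below Slc16a3 and Mdh2 (714 CPM), mitochondrial malate dehydrogenase. Pkm, the pyruvate kinase of muscle that makes the pyruvate, had 4324 and 2301 CPM and was 1.88-fold lower, under the threshold. It passed the threshold at 2.05-fold with Atp2a1 left out of the totals and at 2.16-fold with known models only. Bsg, the chaperone of the lactate transporters, had 1133 and 1075 CPM. The further catalytic and core subunits of pyruvate dehydrogenase, Dlat (216 and 238 CPM), Dld (122 and 157 CPM) and Pdhx (75.3 and 83.6 CPM), were not called. Pdk1 had 24 and 29 reads, Pdk3 had 0 and 4, and Ldhc, Ldhal6b, Mpc1l and Slc16a7 had 0 in both, which allows up to 3.76 and 1.87 CPM each.

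RefSeq promoter sequences were matched for 9 of the 10 genes (GRCm38.p6, 250 bases before to 50 after each start). The promoters of the 3 genes called higher in replicate 2 are printed with matches to the motifs searched in capitals, on either strand: CACGTG (an E-box) and the shorter ACGTG found in hypoxia response elements, GGGCGG (a GC box), CCAAT (bound by the factor NF-Y), TATAAA (the box that positions some start sites) and AAGGTCA (a half-site that nuclear receptors bind). ACGTG lies within CACGTG, so those matches overlap.
Ldhb promoter, chr6:142507908-142508207, minus strand: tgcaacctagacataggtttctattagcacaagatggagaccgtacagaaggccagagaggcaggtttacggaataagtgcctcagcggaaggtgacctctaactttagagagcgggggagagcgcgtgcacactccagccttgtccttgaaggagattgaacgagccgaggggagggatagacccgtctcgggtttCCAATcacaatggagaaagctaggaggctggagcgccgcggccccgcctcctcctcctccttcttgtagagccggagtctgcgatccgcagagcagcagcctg
Mpc1 promoter, chr17:8283537-8283836, plus strand: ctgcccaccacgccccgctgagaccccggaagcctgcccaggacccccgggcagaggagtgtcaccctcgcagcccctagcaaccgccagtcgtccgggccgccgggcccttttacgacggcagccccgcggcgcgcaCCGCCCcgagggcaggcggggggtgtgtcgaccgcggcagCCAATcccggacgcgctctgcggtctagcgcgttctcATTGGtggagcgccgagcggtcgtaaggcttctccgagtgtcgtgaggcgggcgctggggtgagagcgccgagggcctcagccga
Mpc2 promoter, chr1:165461010-165461309, plus strand: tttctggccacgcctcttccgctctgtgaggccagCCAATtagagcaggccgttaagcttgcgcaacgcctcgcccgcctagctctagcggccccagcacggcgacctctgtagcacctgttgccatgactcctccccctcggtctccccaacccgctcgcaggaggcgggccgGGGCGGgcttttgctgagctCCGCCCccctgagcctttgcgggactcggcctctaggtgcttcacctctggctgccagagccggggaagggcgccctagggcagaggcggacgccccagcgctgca

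Each of these 3 promoters held CCAAT, as did 7 of the 9 member promoters and 37.4% of all 32851 promoters in the table. GGGCGG was found in Mpc1 and Mpc2 but not in Ldhb, in 4 of 9 members and in 35.7% of all promoters. CACGTG was found in Ldha, Ldhd and Pdk2, 3 of 9 members, against 7.15% of all promoters. ACGTG occurred in these and in Pdhb (19.6% of all promoters). AAGGTCA (4.72%) and TATAAA (13.6%) were found in 0 of the 9. A match describes the letters in this window and shows no binding.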

How the data were processed

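The authors deposited, for each library, read counts, as whole numbers for each transcript model, with an annotation of exon chains, per the file headers. Per the README beside the files, both derive from filtered alignments to mm10 with GENCODE M21. Classes such as NIC and ISM come from TALON. For the aligner, filters, versions and strand handling, the sources used here give nothing.

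Counts were joined to exon chains and summed per gene. CPM used reads in annotated mouse genes, without spike-ins, antisense and intergenic loci. Genes, models (at least 20 reads summed, in genes with 20 reads or more on each side) and exons (20 informative reads or more on each side) went through Fisher's exact test and Benjamini-Hochberg adjustment. Calls needed an adjusted p under 0.05 and 2-fold or 10 percentage points. Shares carry exact Clopper-Pearson 95% intervals and folds the exact binomial interval of the reads. Without molecular identifiers these cover counting error only. The tests were checked on data simulated with counting error only, which cannot show how reliable calls between 2 real libraries are. TMM factors (edgeR 4.0.16) and size factors (DESeq2 1.42.0, R 4.3.3) gave alternative scalings, tested by the exact binomial test. Python 3.11.15, scipy 1.17.1, pandas 2.3.3 and biopython 1.88 were used. Promoters are RefSeq's.

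Named were all members, the list genes called or among the 3 most abundant, the 5 genes nearest to Ldhb in ratio, models with 5% of a member's reads and 10 reads summed, and pseudogenes sharing over 50% of their 25-base words and holding at least 10 reads. Copies without reads, the short Ldha donor, Mdh2 and the related subunits, kinases and transporters of the list (Dlat, Dld, Pdhx, Pdk1, Pdk3, Ldhc, Ldhal6b, Mpc1l, Slc16a7) were named in addition, after their values were seen. The members and lists were chosen with earlier results of these data known.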

Additional observations from a re-analysis of the deposited data

Results flagged for a closer look

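Reads in loci outside the annotation, which enter no comparison above, passed the limit of 3 counts in both libraries at 3 places. On the strand opposite Pdk4, unannotated loci held 32 reads in replicate 1 and 562 in replicate 2, which is 6.63% (95% CI 4.58 to 9.22) and 34.2% (31.9 to 36.6) of the reads of both strands. Over the whole libraries, antisense and intergenic loci held 3.02% and 6.55% of mouse reads. Nearly all of the Pdk4 loci's reads lay at the 3′ end of the gene, in 1 locus from 5483351 to 5483815 with 32 reads and in another from 5483005 to 5483815 with 557 reads. Beside the single-exon Genomic models of Pdk4 itself (102 and 556 reads), these loci start at the same listed bases. Whether the reads come from either strand was not tested. On the strand opposite Ldha, unannotated loci held 5 and 17 reads, which is 0.0786% (95% CI 0.0255 to 0.183) and 0.142% (0.0829 to 0.228) of the reads of both strands. On the same strand as Mpc1-ps and directly downstream of its annotated end, a single-exon locus of 494 or 495 bases held 9 and 66 reads.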

How the results depend on the processing

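Of the results listed, most kept their direction and side of the threshold. Ldhb stayed called higher in every fit run. The number of members called higher was 2 or 3 and that called lower 0 throughout. With TMM factors, the adjusted p of Pdk2 fell to 0.0314 and that of Pdk4 rose to 0.0609 (exact binomial test), each crossing 0.05. Pdp1 fell to 0.981-fold (TMM), 0.986-fold (DESeq2 size factors), 0.932-fold (Atp2a1 left out of the total) and 0.979-fold (all mouse reads as total), from 1.02-fold. Leaving out Atp2a1 moved the median log2 ratio of all genes from 0.05 to -0.07 and the split of calls from 468 higher and 443 lower to 348 and 567. Without ISM and Genomic models, Ldha was at 1.03-fold, Pdha1 at 1.03-fold, Bsg at 1.03-fold and Pdk4 at 0.822-fold, 0 member models were called for usage (56 of all models, against 1013), Pdk4 was 49.3% of both kinases (mean, against 58.0%), and 1 pathway gene was higher. With known models only, Pdk4 was at 0.719-fold and 49.5% of both kinases, Mpc2 at 97.3% of both carriers (against 54.2%), 1 pathway gene was higher and 4 lower, and 255 of all genes were higher. With at least 50 reads summed, 1 pathway gene and 251 of all genes were lower, since fewer genes were tested. With 20 percentage points, 649 of all models were called. Where no cause is named, the cause was not tested. Leaving out either library gives the value of the other, for example 3.76 to 406 CPM for Ldhb, with no test. The alternative that adds Mpc1-ps to Mpc1 was chosen after seeing the data. No paired analysis was possible because the libraries form 1 group. Depth limits Ldhd, Pdp1 and the 3 reads of Ldhb in replicate 1.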
